A study of Saccharomyces cerevisiae with 15 samples.

Results

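The 41 genes described here encode the machinery that commits a budding yeast cell to division, copies its DNA and carries it through mitosis. They were listed by function and comprised G1 cyclins, G1/S transcription factors, B-type cyclins, the cyclin-dependent kinase with its partners, mitotic regulators, origin licensing factors, replication proteins, ribonucleotide reductase and septins. All 41 had a probe set on the array, among 5656 genes with a named probe set, and 38 were tested. Signals are scaled fluorescence in arbitrary units, comparable between samples for 1 probe set but not between genes, and values under 16 were set to this floor. SWI4, CLB6 and MCM6 lay below it on every array. The genes were measured in Saccharomyces cerevisiae VTT-C-99318, a haploid MATα strain engineered to use xylose. In every sample it carried the Pichia stipitis genes XYL1, for xylose reductase, and XYL2, for xylitol dehydrogenase, at the URA3 locus. An additional copy of XKS1, for xylulokinase, was integrated at HIS3 with the kanMX marker. The parent, CEN.PK2-1D, is auxotrophic for leucine, uracil, tryptophan and histidine. According to the study's methods XYL1 was driven by the PGK1 promoter, and XYL2 and the added XKS1 by a modified ADH1 promoter. A strain without these genes was not analysed here, so the 3 genes are shared by all groups. Cells were grown aerobically in bioreactors in synthetic complete medium with 50 g/L of sugar. The 3 states were glucose cultures sampled at 5 h (Glc5h, glucose in excess), the same glucose cultures sampled at 24 h (Glc24h, glucose used up) and xylose cultures sampled at 72 h (Xyl72h). Each state had 3 cultures, numbered 0, 1 and 2, and values below are given in that order. The RNA of culture 2 was hybridised 3 times in each state, which gave 15 arrays and 9 samples.

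In budding yeast the decision to divide, called Start, is made in late G1 by the kinase Cdc28 bound to G1 cyclins. This switches on 2 factors, SBF and MBF, which transcribe a wave of cyclin, replication and nucleotide synthesis genes. B-type cyclins then drive replication and mitosis, and their kinase activity has to be removed before origins can be licensed again and the cell can leave mitosis. Cells that run out of sugar mostly stop in G1 before Start. In bulk RNA, fewer dividing cells and less RNA of these genes per cell cannot be told apart. Sugar, hours in culture and growth rate changed together between the states, so their parts in any difference cannot be told apart either.

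The alpha-cell gene MF(ALPHA)1 had signals from 553 to 2007, while the a-cell genes MFA1, STE2 and BAR1 were below the floor on every array, as in a MATα strain. MFA2, another a-cell gene, did not exceed 25.1. Of the alpha-cell genes, MF(ALPHA)2 and STE3 are not given here. The ratio of 3' to 5' actin signal, which rises when RNA is degraded, was 1.86 to 2.29 on the Glc5h arrays, 2.18 to 10.3 on the Glc24h arrays and 1.88 to 2.77 on the Xyl72h arrays. The highest value belonged to Glc24h culture 1, and without it 8 genes in place of 15 passed in Glc24h, 9 in place of 12 in Xyl72h and 11 in place of 13 in an F-test over the 3 states. Over the 38 genes, the root mean square SD of log2 signal was 0.179, 0.129 and 0.115 between hybridisations and 0.421, 0.415 and 0.299 between cultures of Glc5h, Glc24h and Xyl72h. Differences between cultures therefore set the error of what follows.

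Most of the division genes that differed between the states had their highest signal in fresh glucose. In Glc24h against Glc5h, 15 of the 38 genes were lower and 0 were higher (limma, adjusted p under 0.05). Lower calls thus took 39.5% of the genes, against 19.1% of all 5877 probe sets tested, and higher calls took none, against 14.4%. At unadjusted p under 0.05 there were 2 genes higher and 18 lower, against 1134 higher and 1450 lower of all 5877 probe sets. In Xyl72h against Glc5h, 11 genes were lower, 28.9% of them against 14.0% of all probe sets, and 1 was higher, against 11.7%. Between Xyl72h and Glc24h, 0 of the 38 passed, where 3.37% of all probe sets were higher and 2.26% lower. At unadjusted p under 0.05 there were 4 higher and 2 lower, against 657 higher and 473 lower of all 5877 probe sets. Counted over 4681 genes with 1 probe set each, the shares of all genes were 21.0% lower and 15.9% higher in Glc24h, 16.4% and 11.6% in Xyl72h against Glc5h, and 2.63% and 2.61% in Xyl72h against Glc24h. An F-test over the 3 states passed 13 of the 38 genes, against 34.3% of all probe sets. At the unadjusted p under 0.01 that the methods used it passed 9, against 29.5% of all. By that test the genes passed about as often as other probe sets or less often, while their calls against Glc5h lay nearly all in 1 direction. The median log2 difference over the 38 genes was -0.29 in Glc24h and -0.39 in Xyl72h against Glc5h, compared with -0.03 and -0.02 over all probe sets. Both comparisons use the same Glc5h samples and are not independent. The mean signal was highest in Glc5h for 27 genes, in Glc24h for 6 and in Xyl72h for 5. Shares of all probe sets by highest state were not counted. Of the 27, CLB1, CLB2, CLB4, SWI5, CDC6, MCM5 and CDC3 were at the floor in every later culture. They entered the test only through Glc5h, so their order was fixed in advance, and they add to the negative medians. CLB4, SWI5 and MCM5 also count among the genes without overlap given next. Every Glc24h culture lay below every Glc5h culture for 17 genes (23.9% of all probe sets did so) and every Xyl72h culture did for 20 (21.6% of all).

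The counts, and their excess over the other probe sets, moved with some scalings of the arrays and stayed with others. With quantile normalisation, lower calls were 36.8% of the genes against 18.7% of all probe sets in Glc24h. In Xyl72h they were 36.8% against 14.6%. With cyclic loess normalisation they were 39.5% against 18.8% in Glc24h and 28.9% against 15.1% in Xyl72h, so the excess stayed under both. With the deposited signals left at the scale of the array software, 6 genes were lower and 2 higher in Glc24h, and 5 were lower and 1 higher in Xyl72h, against Glc5h. These lower calls were 15.8% of the genes against 14.2% of all probe sets in Glc24h, and 13.2% against 11.6% in Xyl72h, so that little excess was left. When arrays were scaled on 4 reference genes (ALG9, TAF10, TFC1 and UBC6), the median log2 difference of all probe sets was 0.25 in Glc24h and 0.16 in Xyl72h. Then 1 gene was lower and 2 higher in Glc24h, and 2 were lower and 1 higher in Xyl72h. Lower calls were then 2.7% of the genes against 8.92% of all probe sets in Glc24h, and 5.41% against 5.53% in Xyl72h, and the excess was gone. The genes higher in Glc24h both at the deposited scale and with reference genes were MCM3 and POL2. With reference genes the lower ones were PCL1 in Glc24h and PCL1 and RFA1 in Xyl72h. Single cultures mattered as well. Without Glc5h culture 2, 17 genes were lower and 2 higher in Glc24h (44.7% lower against 22.3% of all probe sets). Without Glc24h culture 0, 10 were lower and 0 higher there (26.3% against 15.3%). Without Glc5h culture 0, 8 genes were lower in Glc24h and 0 higher, and lower calls were 21.1% of the genes against 16% of all probe sets. Without Glc24h culture 1, 7 were lower and 1 higher (18.4% lower against 17.6% of all), and without Glc24h culture 2, 6 were lower and 1 higher (15.8% against 14.6%). In Xyl72h, 4 were lower and 1 higher without Xyl72h culture 0 (10.5% lower against 8.51% of all) and 5 were lower and 1 higher without Xyl72h culture 2 (13.2% against 8.78%). With a floor of 4 and all 41 genes tested, 19 were lower and 1 higher in Glc24h (46.3% lower against 16.4% of all), and 13 were lower and 1 higher in Xyl72h (31.7% against 11.9%). Among the called differences, PCL1 in Glc24h and RFA1 and RNR3 in Xyl72h passed under every alternative that gave a value. RNR3 is not on a par with RFA1 here. It was at the floor in every Glc5h culture, so it had no spread there and entered the test only through later cultures. With a floor of 32 it gave no value.

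**Figure D1:**
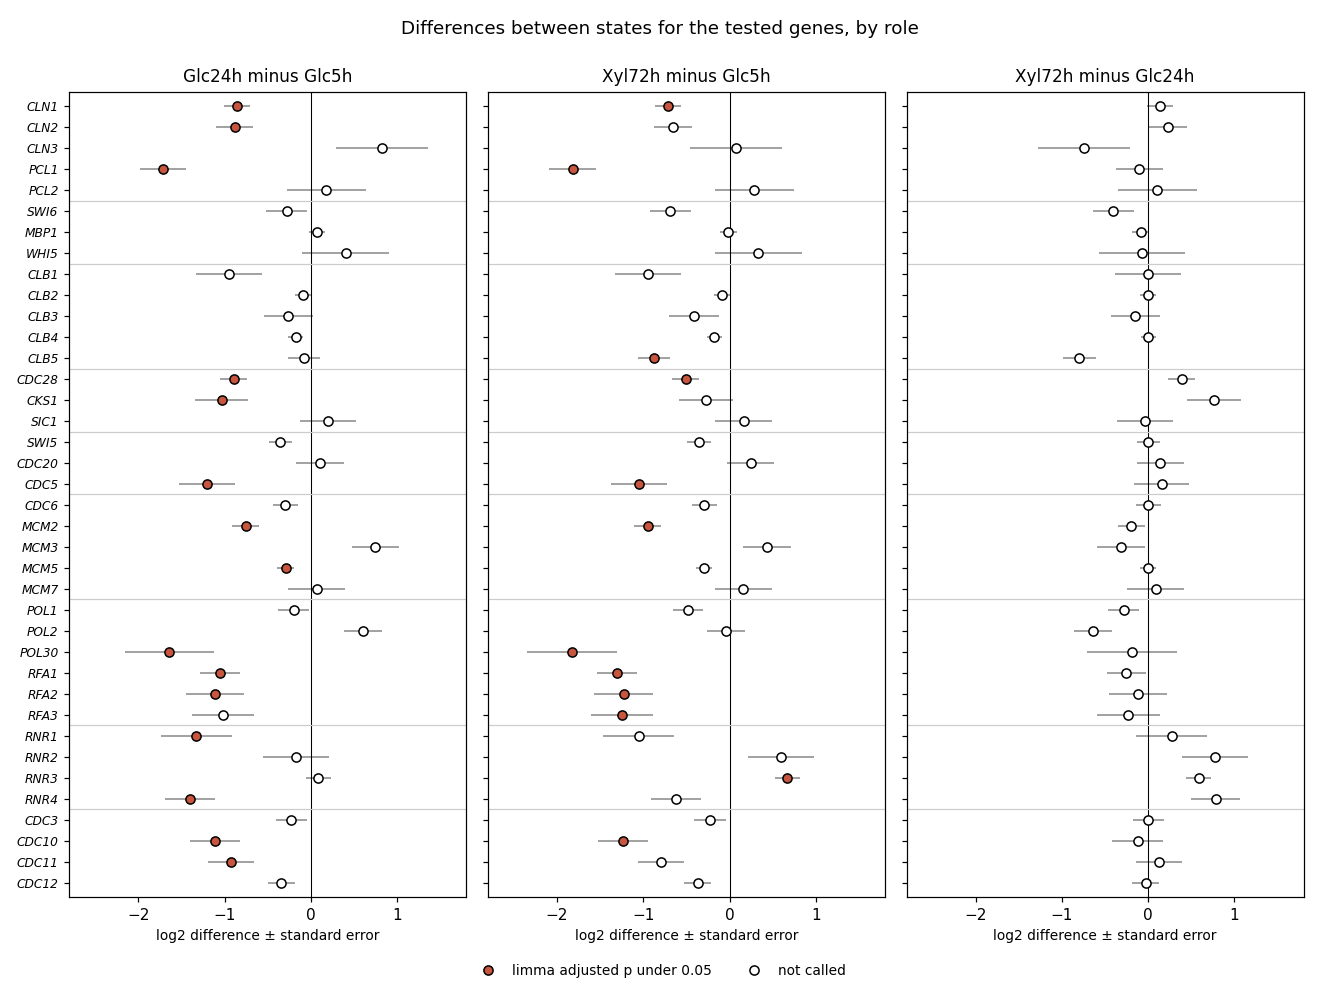
Log2 signal difference of each of the 38 tested genes in Glc24h and in Xyl72h, each against Glc5h, with bars of 1 standard error from the limma fit and filled points for genes that passed. Most points lie left of 0 in both comparisons, PCL1 farthest in Glc24h and POL30 in Xyl72h, and RNR3 in Xyl72h is the gene called to the right.

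Of the G1 cyclins, 3 of 5 were lower in Glc24h and 2 of 5 in Xyl72h than in Glc5h. CLN1, CLN2 and CLN3 encode those that activate Cdc28. PCL1, a cyclin of the related kinase Pho85, had the largest difference of the list in Glc24h. PCL1 (YNL289W) had signals of 88.0, 52.9 and 39.7 in Glc5h, 20.5, 16 and 16 in Glc24h and 16, 16.5 and 16 in Xyl72h. In both later states nearly every culture was at or close to the floor. The log2 difference was -1.71 (adjusted p = 0.00301) in Glc24h and -1.82 (adjusted p = 0.00352) in Xyl72h, with a standard error of 0.27. CLN1 and CLN2 are the G1 cyclins whose genes are switched on at Start itself. For CLN1 (YMR199W), cultures 0, 1 and 2 gave 26.7, 32.4 and 29.0 in Glc5h, 16.1, 16 and 16.6 in Glc24h and 16, 22.1 and 16 in Xyl72h. The Glc5h cultures were above all others, and 2 Xyl72h cultures and 1 Glc24h culture were at the floor. CLN1 differed by -0.85 (adjusted p = 0.00472) in Glc24h and by -0.72 (adjusted p = 0.0127) in Xyl72h, with a standard error of 0.15. The signals of CLN2 (YPL256C) were 36.1, 36.8 and 28.0 in Glc5h, 21.4, 16 and 17.3 in Glc24h and 22.7, 26.3 and 16 in Xyl72h. Here too each Glc5h culture was above each culture of the later states. Its difference passed in Glc24h, at -0.88 (adjusted p = 0.0172), and not in Xyl72h, at -0.65 (adjusted p = 0.0630), where it passed with the culture number as a block (adjusted p = 0.0389). The CLN2 call was lost when Glc5h culture 0 or 1 or Glc24h culture 1 or 2 was left out (adjusted p = 0.0509 to 0.0547). CLN3, the cyclin upstream of the others, did not pass. CLN3 (YAL040C) had signals of 64.6, 67.3 and 121 in Glc5h, 270.5, 60.5 and 178 in Glc24h and 103, 80.4 and 74.0 in Xyl72h. Its log2 difference in Glc24h was 0.82 (adjusted p = 0.275), and without Glc24h culture 1, the culture with the highest actin ratio, it was 1.44 (adjusted p = 0.0200). The log2 differences of PCL2, another Pho85 cyclin, were 0.18 (adjusted p = 0.796) and 0.29 (adjusted p = 0.705).

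The G1/S transcription factors SBF and MBF share the subunit Swi6 and bind DNA through Swi4 and Mbp1, and Whi5 holds SBF back until Start. None of the 3 tested genes of this group passed in a comparison, and at unadjusted p under 0.05 there was 1, SWI6, lower in Xyl72h. For SWI6 (YLR182W), cultures 0, 1 and 2 gave 30.0, 27.0 and 21.0 in Glc5h, 19.7, 30.1 and 16 in Glc24h and 16 in every Xyl72h culture. The Xyl72h cultures were all at the floor, below each Glc5h culture, and the difference was -0.68 (adjusted p = 0.0734). SWI6 passed with quantile normalisation, at -0.70 (adjusted p = 0.0480), and with a floor of 4, at -1.19 (adjusted p = 0.0351). In a fit of all 15 arrays with the sample as a random block it passed at -0.68 (adjusted p = 0.0244). It also passed without Glc24h culture 1, at -0.68 (adjusted p = 0.0225), and without Glc5h culture 2, at -0.83 (adjusted p = 0.0494), so this gene lies at the edge of the threshold. MBP1 did not exceed 18.7 in any culture, and SWI4 was not tested. The signals of WHI5 (YOR083W) were 19.9, 16 and 16 in Glc5h, 46.2, 16 and 16 in Glc24h and 39.8, 16 and 16 in Xyl72h. Its signal above the floor came from culture 0 in every state, so the WHI5 differences of 0.40 and 0.33 rest on 1 culture each.

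Among the 5 tested B-type cyclins, 1 was lower in Xyl72h and none passed in Glc24h, where 1 was lower at unadjusted p under 0.05. The one that passed, CLB5, starts S phase with CLB6, which was not tested. CLB5 (YPR120C) had signals of 45.6, 53.2 and 34.5 in Glc5h, 37.4, 39.0 and 49.0 in Glc24h and 22.8, 22.2 and 26.7 in Xyl72h. The Xyl72h cultures were below every culture of both glucose states, while the glucose states overlapped. CLB5 differed from Glc5h by -0.87 (adjusted p = 0.0138) in Xyl72h and by -0.08 (adjusted p = 0.791) in Glc24h, with a standard error of 0.19. The difference between Xyl72h and Glc24h was -0.80 (adjusted p = 0.0538), just outside the threshold. It passed without Glc5h culture 2, at -0.80 (adjusted p = 0.0325), and with the deposited scale, at -0.98 (adjusted p = 0.0450). The call against Glc5h was lost when Xyl72h culture 0 was left out (adjusted p = 0.0501). The mitotic cyclins CLB1, CLB2 and CLB4 were at the floor in every Glc24h and Xyl72h culture. In Glc5h they reached 54.2, 18.5 and 18.9 at most. With a floor of 4, CLB1 passed in both, at -1.99 (adjusted p = 0.0226) in Glc24h and -2.32 (adjusted p = 0.0169) in Xyl72h. CLB2 then passed at -1.77 (adjusted p = 0.00238) and -1.83 (adjusted p = 0.00327), and CLB6 at -0.94 (adjusted p = 0.00637) and -0.94 (adjusted p = 0.00932). These calls rest in part on signals under 16, and CLB6 did not exceed 9.91 on any array. Whether such low signals differ by more than array noise was not tested. CLB1 also passed without Glc5h culture 2, at -1.42 (adjusted p = 0.00230) in Glc24h and -1.42 (adjusted p = 0.00346) in Xyl72h. For CLB3 (YDL155W), cultures 0, 1 and 2 gave 55.5, 44.6 and 36.2 in Glc5h, 32.6, 54.7 and 29.2 in Glc24h and 33.9, 42.1 and 26.8 in Xyl72h. The 3 states overlapped for CLB3.

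Cdc28, the kinase of the cell cycle, and Cks1, the small subunit that helps it act on its substrates, were both lower in Glc24h, whereas their inhibitor gene SIC1 did not pass. The signals of CDC28 (YBR160W) were 103, 77.1 and 94.1 in Glc5h, 47.4, 47.4 and 51.7 in Glc24h and 54.2, 72.7 and 65.9 in Xyl72h. The order of the states was Glc5h, Xyl72h, Glc24h, with no overlap between any of them. CDC28 differed from Glc5h by -0.90 (adjusted p = 0.00416) in Glc24h and by -0.51 (adjusted p = 0.0463) in Xyl72h, with a standard error of 0.15. With the culture number as a block the Xyl72h difference had an adjusted p = 0.0701, and it was also lost when Glc5h culture 0 or 2, any Glc24h culture or any Xyl72h culture was left out (adjusted p = 0.05005 to 0.140). Xyl72h and Glc24h themselves differed by 0.39 (adjusted p = 0.223), so the order of these neighbours is not established by the test. CKS1 (YBR135W) had signals of 110.4, 71.1 and 69.5 in Glc5h, 60.4, 32.5 and 32.4 in Glc24h and 84.0, 68.3 and 54.1 in Xyl72h. All Glc24h cultures were below all Glc5h cultures, while Xyl72h overlapped both. CKS1 differed by -1.03 (adjusted p = 0.0371) in Glc24h and -0.27 (adjusted p = 0.577) in Xyl72h, with a standard error of 0.31. The Glc24h call was lost when Glc5h culture 0 or 1, Glc24h culture 1 or 2 or Xyl72h culture 1 was left out (adjusted p = 0.0587 to 0.112). With the culture number as a block the Xyl72h signal passed as higher than Glc24h, by 0.76 (adjusted p = 0.0331, without the block 0.237). SIC1 encodes the inhibitor that holds B-type cyclin kinases in check through G1. For SIC1 (YLR079W), cultures 0, 1 and 2 gave 28.1, 36.8 and 75.1 in Glc5h, 56.3, 43.4 and 48.1 in Glc24h and 48.6, 48.2 and 46.4 in Xyl72h. Its Glc5h cultures spanned the values of both other states. Without Glc5h culture 2, the high one, SIC1 passed as higher in both, at 0.61 (adjusted p = 0.0282) in Glc24h and 0.57 (adjusted p = 0.0417) in Xyl72h.

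Of the mitotic regulators, CDC5, the polo-like kinase that promotes mitotic exit, was lower in both later states. The signals of CDC5 (YMR001C) were 27.4, 67.4 and 29.7 in Glc5h, 16, 17.2 and 16.2 in Glc24h and 18.3, 21.0 and 16 in Xyl72h. Culture 1 was high in Glc5h, and still each Glc5h culture was above each later one. CDC5 differed by -1.21 (adjusted p = 0.0238) in Glc24h and by -1.05 (adjusted p = 0.0492) in Xyl72h, with a standard error of 0.32. These calls were lost when any Glc24h culture was left out (adjusted p = 0.0511 to 0.0649) for Glc24h and when any Glc24h culture or any Xyl72h culture was left out (adjusted p = 0.0679 to 0.138) for Xyl72h. SWI5 encodes the factor that turns on early G1 genes as cells leave mitosis. SWI5 (YDR146C) had signals of 24.8, 19.8 and 17.4 in Glc5h and 16 in every culture of Glc24h and Xyl72h. It was above the floor in Glc5h and nowhere else, with an adjusted p = 0.0818 and 0.0962. It passed with a floor of 4 in Glc24h, at -1.79 (adjusted p = 0.0225), and without Glc5h culture 2 in Glc24h, at -0.47 (adjusted p = 0.0237), and in Xyl72h, at -0.47 (adjusted p = 0.0297). For CDC20 (YGL116W), cultures 0, 1 and 2 gave 16.1, 28.3 and 33.3 in Glc5h, 26.9, 22.2 and 31.5 in Glc24h and 25.9, 30.5 and 32.0 in Xyl72h. CDC20, an activator of the anaphase-promoting complex, overlapped between all states.

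Origin licensing loads the MCM helicase onto DNA in G1, with Cdc6 as a loader. Of the 5 tested genes, MCM2 was lower in both later states and MCM5 in Glc24h. The signals of MCM2 (YBL023C) were 38.5, 43.7 and 35.6 in Glc5h, 26.8, 24.1 and 19.3 in Glc24h and 19.0, 22.9 and 19.1 in Xyl72h. No later culture reached the lowest Glc5h culture. MCM2 differed by -0.75 (adjusted p = 0.00911) in Glc24h and by -0.95 (adjusted p = 0.00518) in Xyl72h, with a standard error of 0.16. MCM5 (YLR274W) had signals of 21.6, 18.9 and 18.5 in Glc5h and 16 in every culture of Glc24h and Xyl72h. MCM5 was little above the floor in Glc5h and at it in both later states, so its fall is a lower bound. It was at least 1.22-fold lower in Glc24h (adjusted p = 0.0477) and the same bound held in Xyl72h without passing (adjusted p = 0.0578). With the culture number as a block the Glc24h value had an adjusted p = 0.0663, and it was lost when Glc5h culture 0 or 1, any Glc24h culture or any Xyl72h culture was left out (adjusted p = 0.0680 to 0.120). MCM3 and MCM7 encode further subunits of the same helicase. For MCM3 (YEL032W), cultures 0, 1 and 2 gave 17.7, 22.9 and 34.6 in Glc5h, 52.8, 33.9 and 37.1 in Glc24h and 29.7, 38.8 and 29.8 in Xyl72h. The MCM3 difference in Glc24h was 0.75 (adjusted p = 0.0742). It passed as higher with the deposited scale, at 0.94 (adjusted p = 0.0452), with reference genes, at 1.23 (adjusted p = 0.0169), and without Glc5h culture 2, at 1.01 (adjusted p = 0.0178). The signals of MCM7 (YBR202W) were 16, 33.1 and 22.2 in Glc5h, 25.0, 32.6 and 16.6 in Glc24h and 22.8, 31.3 and 22.8 in Xyl72h. CDC6 (YJL194W) had signals of 19.8, 16 and 23.8 in Glc5h and 16 in every culture of Glc24h and Xyl72h. Neither MCM7 nor CDC6 passed, and CDC6 was above the floor in 2 Glc5h cultures alone. CDC6 passed as lower in Glc24h with a floor of 4, at -1.91 (adjusted p = 0.00833), and without Glc5h culture 1 in Glc24h, at -0.44 (adjusted p = 0.0300), and in Xyl72h, at -0.44 (adjusted p = 0.0375).

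The replication fork proteins held the most calls of any group in Xyl72h, 4 of 6, with 3 of 6 in Glc24h. RFA1, RFA2 and RFA3 encode the 3 subunits of replication protein A, which coats single-stranded DNA. For RFA1 (YAR007C), cultures 0, 1 and 2 gave 111, 99.1 and 120.1 in Glc5h, 57.3, 63.2 and 40.5 in Glc24h and 37.4, 59.3 and 39.1 in Xyl72h. The signals of RFA2 (YNL312W) were 162, 131 and 81.9 in Glc5h, 49.0, 57.0 and 61.9 in Glc24h and 32.6, 68.9 and 60.2 in Xyl72h. RFA3 (YJL173C) had signals of 97.3, 136 and 70.7 in Glc5h, 47.5, 59.8 and 39.7 in Glc24h and 29.2, 67.5 and 35.6 in Xyl72h. For all 3 subunits every later culture was below every Glc5h culture. RFA1 differed by -1.06 (adjusted p = 0.0109) in Glc24h and by -1.31 (adjusted p = 0.00656) in Xyl72h, with a standard error of 0.23. RFA2 differed by -1.11 (adjusted p = 0.0392) and -1.23 (adjusted p = 0.0344), and RFA3 by -1.02 (adjusted p = 0.0656) and -1.24 (adjusted p = 0.0413), with standard errors of 0.34 and 0.36. The Glc5h cultures lay closest together for RFA1, which had the smallest standard error of the 3. With the culture number as a block, both RFA2 differences missed the threshold (adjusted p = 0.0570 and 0.0508) and RFA3 passed in Glc24h (adjusted p = 0.0120). RFA3 also passed there without Xyl72h culture 1, at -1.02 (adjusted p = 0.0327), and without Glc5h culture 2, at -1.25 (adjusted p = 0.0423). RFA2 was lost when Glc5h culture 0 or 1, any Glc24h culture or Xyl72h culture 2 was left out (adjusted p = 0.0557 to 0.119) in Glc24h and when Glc5h culture 0 or 1, Glc24h culture 2 or Xyl72h culture 0 or 2 was left out (adjusted p = 0.0516 to 0.105) in Xyl72h. RFA3 in Xyl72h was lost when Glc5h culture 0 or 1, any Glc24h culture or Xyl72h culture 0 or 2 was left out (adjusted p = 0.0503 to 0.128). POL30 encodes PCNA, the sliding clamp that holds polymerases on DNA. For POL30 (YBR088C), cultures 0, 1 and 2 gave 141, 84.8 and 45.1 in Glc5h, 46.2, 24.1 and 16 in Glc24h and 17.5, 32.8 and 21.0 in Xyl72h. Glc5h culture 2 lay just below Glc24h culture 0, so these groups overlapped. POL30 differed by -1.64 (adjusted p = 0.0447) in Glc24h and by -1.83 (adjusted p = 0.0381) in Xyl72h, with a standard error of 0.52, the widest among the called genes. It was lost when Glc5h culture 0 or 1, Glc24h culture 1 or 2 or any Xyl72h culture was left out (adjusted p = 0.0553 to 0.131) in Glc24h and when Glc5h culture 0 or 1, Glc24h culture 1 or any Xyl72h culture was left out (adjusted p = 0.0511 to 0.119) in Xyl72h.

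Neither of the polymerase genes passed in a comparison. POL1 encodes the catalytic subunit of polymerase alpha, which starts each strand with primase. The signals of POL1 (YNL102W) were 40.2, 45.6 and 45.9 in Glc5h, 42.7, 36.4 and 35.8 in Glc24h and 25.7, 40.2 and 29.7 in Xyl72h. POL1 differed by -0.20 (adjusted p = 0.421) in Glc24h and by -0.48 (adjusted p = 0.0826) in Xyl72h, which passed without Xyl72h culture 1, at -0.67 (adjusted p = 0.0232). POL2 encodes the catalytic subunit of polymerase epsilon and was the single gene of the list with several probe sets, 9 in all. POL2 (YNL262W) had signals of 31.1, 39.7 and 24.9 in Glc5h, 56.5, 50.3 and 38.0 in Glc24h and 31.0, 34.7 and 26.4 in Xyl72h. Its mean was highest in Glc24h, with a difference of 0.60 (adjusted p = 0.0710) from Glc5h, and Xyl72h differed from Glc24h by -0.64 (adjusted p = 0.163). With the culture number as a block both differences passed (adjusted p = 0.0171 and 0.0445). The POL2 difference between the glucose states also passed without Glc5h culture 1, at 0.78 (adjusted p = 0.0390), and without Glc24h culture 2, at 0.77 (adjusted p = 0.0470).

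Ribonucleotide reductase makes deoxynucleotides, with RNR1 for the usual large subunit, RNR3 for its damage-inducible paralog, and RNR2 and RNR4 for the small subunits. RNR1 and RNR4 were lower in Glc24h, RNR3 was higher in Xyl72h and RNR2 did not pass. For RNR4 (YGR180C), cultures 0, 1 and 2 gave 397, 317 and 379.6 in Glc5h, 201, 89.4 and 144 in Glc24h and 202, 282 and 229 in Xyl72h. The Glc24h cultures were lowest in RNR4, and Xyl72h lay between the glucose states. RNR4 differed from Glc5h by -1.40 (adjusted p = 0.00860) in Glc24h and by -0.62 (adjusted p = 0.155) in Xyl72h, with a standard error of 0.29. The signals of RNR1 (YER070W) were 106, 181 and 84.5 in Glc5h, 80.5, 44.5 and 28.5 in Glc24h and 58.5, 64.4 and 47.9 in Xyl72h. RNR1 differed by -1.33 (adjusted p = 0.0418) in Glc24h and by -1.05 (adjusted p = 0.102) in Xyl72h, with a standard error of 0.41. All later cultures were below the Glc5h cultures, but the RNR1 call was lost when Glc5h culture 0 or 1, Glc24h culture 1 or 2 or any Xyl72h culture was left out (adjusted p = 0.0601 to 0.116). RNR2 (YJL026W) had signals of 108, 90.5 and 188 in Glc5h, 132, 133 and 73.5 in Glc24h and 184, 263 and 132 in Xyl72h. RNR2 overlapped between the states, while its partner RNR4 did not between Glc5h and Glc24h. For RNR3 (YIL066C), cultures 0, 1 and 2 gave 16 in every Glc5h culture, 16, 16 and 19.1 in Glc24h and 30.9, 22.6 and 23.7 in Xyl72h. RNR3 was the 1 gene called higher in any comparison. It was at the floor throughout Glc5h, so in Xyl72h it was at least 1.59-fold higher (adjusted p = 0.0134), and against Glc24h it differed by 0.59 (adjusted p = 0.0609). The probe set of RNR3 is marked by the manufacturer as shared with similar sequences. With a floor of 4 in place of 16, RNR3 was higher in Glc24h as well, by 1.56 (adjusted p = 0.00711).

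Septins form the ring at the bud neck, and 2 of 4 were lower in Glc24h and 1 of 4 in Xyl72h. The signals of CDC10 (YCR002C) were 114, 112 and 92.5 in Glc5h, 40.9, 75.8 and 38.1 in Glc24h and 36.6, 59.0 and 42.3 in Xyl72h. Each later culture was below each Glc5h culture. CDC10 differed by -1.11 (adjusted p = 0.0228) in Glc24h and by -1.23 (adjusted p = 0.0200) in Xyl72h, with a standard error of 0.29. It was lost when Glc5h culture 0 or 1 or Glc24h culture 0 or 2 was left out (adjusted p = 0.0630 to 0.0729) in Glc24h and when Glc5h culture 0 or 1 or Xyl72h culture 0 or 2 was left out (adjusted p = 0.0566 to 0.0708) in Xyl72h. CDC11 (YJR076C) had signals of 124, 67.2 and 143 in Glc5h, 57.6, 51.1 and 59.9 in Glc24h and 54.8, 63.9 and 64.8 in Xyl72h. CDC11 varied more within Glc5h than in the later states, which it nevertheless exceeded in every culture. Its differences were -0.92 (adjusted p = 0.0324) in Glc24h and -0.80 (adjusted p = 0.0643) in Xyl72h, with a standard error of 0.27, and the Glc24h call was lost when Glc5h culture 0 or 2, any Glc24h culture or Xyl72h culture 1 or 2 was left out (adjusted p = 0.0515 to 0.0997). For CDC3 (YLR314C), cultures 0, 1 and 2 gave 16, 25.6 and 16 in Glc5h and 16 in every culture of Glc24h and Xyl72h. The signals of CDC12 (YHR107C) were 16, 23.4 and 23.7 in Glc5h, 16, 17.0 and 16 in Glc24h and 16 in every Xyl72h culture. These partners in the same filament were near the floor, where a fall could hardly be measured. CDC12 passed as lower without Glc5h culture 0, at -0.53 (adjusted p = 0.00863) in Glc24h and -0.56 (adjusted p = 0.0111) in Xyl72h, and CDC11 passed in Xyl72h without Glc5h culture 1, at -1.13 (adjusted p = 0.00388).

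Within the glucose cultures the same vessel was sampled at both times, so each culture could be compared with itself. In a fit of the 6 glucose samples with the culture as a block, 10 of the 38 genes were lower in Glc24h and 0 higher, where 13.4% of all probe sets tested in that fit were lower and 9.57% higher. These were 9 of the 15 above and RFA3, and the others were CDC5 (adjusted p = 0.0656), MCM5 (adjusted p = 0.242), RFA1 (adjusted p = 0.0530), RFA2 (adjusted p = 0.0778), RNR1 (adjusted p = 0.0799) and CDC11 (adjusted p = 0.0675). Within cultures 0, 1 and 2, PCL1 changed by -2.10, -1.73 and -1.31 on the log2 scale, CDC28 by -1.12, -0.70 and -0.86 and RNR4 by -0.98, -1.82 and -1.40. All of these fell in each culture, PCL1 and CDC28 most in culture 0 and RNR4 most in culture 1.

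Xyl72h against Glc24h was the comparison with the fewest calls for these genes. The 4 genes with a higher Xyl72h signal at unadjusted p under 0.05 were CDC28 (0.39, adjusted p = 0.223), CKS1 (0.76, adjusted p = 0.237), RNR3 (0.59, adjusted p = 0.0609) and RNR4 (0.78, adjusted p = 0.191), and the 2 with a lower one were CLB5 (-0.80, adjusted p = 0.0538) and POL2 (-0.64, adjusted p = 0.163). Of all 5877 probe sets, 657 were higher and 473 lower at that unadjusted threshold. None of the 38 genes passed after adjustment with limma as reported. With the culture number as a block 2 did, CKS1 as higher and POL2 as lower, where 8.29% of all probe sets did. With that block 15 genes passed in Glc24h and 11 in Xyl72h against Glc5h, where 39.3% and 30.6% of all probe sets did. The summed signal of the 38 genes was 2383, 2255 and 2195 in the Glc5h cultures, 1791, 1366 and 1345 in the Glc24h cultures and 1489, 1805 and 1406 in the Xyl72h cultures. By this sum each Glc5h culture was above every later one, and the later states overlapped. Genes with high signals weigh most in a sum. The median signal of the 38 genes was 32.41, 41.72 and 33.88 in the Glc5h cultures. It was 34.985, 27.14 and 19.23 in the Glc24h cultures and 25.79, 28.75 and 23.26 in the Xyl72h cultures. By the median, Glc24h culture 0 lay above Glc5h cultures 0 and 2, so the glucose states overlapped. Every Xyl72h culture still lay below every Glc5h culture. The number of the 38 genes at the floor was 5, 5 and 5 in the Glc5h cultures, 10, 13 and 14 in the Glc24h cultures and 12, 11 and 16 in the Xyl72h cultures. Of all probe sets without controls, tested or not, 52.5% to 52.7% were under the floor on the Glc5h arrays. The range was 50.6% to 52.2% on the Glc24h arrays and 51.0% to 53.5% on the Xyl72h arrays. Genes above the floor in Glc5h alone entered the test through that state, which shapes the counts of the 38.

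The list was set beside 83 tested genes from 4 lists of other division genes. In Glc24h against Glc5h, 20 of them were lower and 2 higher, or 24.1% and 2.41% against 19.1% and 14.4% of all probe sets. In Xyl72h 20 were lower and 3 higher, or 24.1% and 3.61% against 14.0% and 11.7% of all. With the culture number as a block 25 and 28 of them passed in place of 22 and 23. Over all probe sets the block also raised the calls, from 33.5% to 39.3% in Glc24h and from 25.7% to 30.6% in Xyl72h. With the block CTS1 was lost in Glc24h (adjusted p = 0.0695), and RFC1, RFC2, RFC5 and SKP1 were gained there. In Xyl72h RFC1, RFC2, TOP2, SKP1 and SMC3 were gained. Genes of septin assembly and cytokinesis had 7 of 14 lower in Glc24h and 5 of 14 in Xyl72h. Other replication genes had 8 of 32 lower and 1 higher in both comparisons. Mitosis and cohesion genes had 3 of 19 lower in both (15.8%, close to the shares of all probe sets), and 1 higher in Xyl72h. Other G1 and S regulators had 2 of 18 lower (11.1%, under the share of all) and 1 higher in Glc24h, and 4 lower and 1 higher in Xyl72h. DUT1, for the dUTPase that keeps uracil out of DNA, had the largest differences of these lists. DUT1 (YBR252W) had signals of 267, 169 and 126 in Glc5h, 24.0, 30.7 and 29.6 in Glc24h and 26.9, 41.8 and 45.5 in Xyl72h. It differed by -2.68 (adjusted p = 0.000742) in Glc24h and by -2.27 (adjusted p = 0.00251) in Xyl72h, and every later culture was below every Glc5h culture. DSE2, for a daughter-cell protein of the septum, differed by -1.90 (adjusted p = 0.0159) and -1.58 (adjusted p = 0.0404). These calls were lost when Glc5h culture 1 was left out (adjusted p = 0.05001) in Glc24h and when any Glc5h culture or any Xyl72h culture was left out (adjusted p = 0.0506 to 0.119) in Xyl72h. In the fit of the glucose cultures with the culture as a block DSE2 had an adjusted p = 0.0684. PRI2, for a primase subunit that works with POL1, was at the floor in Glc24h and at least 2.66-fold lower there (adjusted p = 0.00262), and it differed by -0.96 (adjusted p = 0.0166) in Xyl72h. YOX1, for a repressor of early cell cycle genes, was lower in both, with differences of -1.07 (adjusted p = 0.0105) in Glc24h and -1.27 (adjusted p = 0.00754) in Xyl72h.

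A few genes of these lists went up. XBP1 encodes a repressor known to be induced by stress and to act on G1 cyclin genes. For XBP1 (YIL101C), cultures 0, 1 and 2 gave 16 in every Glc5h culture, 84.1, 43.3 and 32.8 in Glc24h and 58.4, 52.3 and 41.9 in Xyl72h. From the floor in Glc5h it was at least 3.08-fold higher in Glc24h (adjusted p = 0.00737) and at least 3.15-fold higher in Xyl72h (adjusted p = 0.00921). TAH11, which encodes the licensing factor Cdt1, differed by 0.87 (adjusted p = 0.0109) in Glc24h and by 1.03 (adjusted p = 0.00771) in Xyl72h. Its Glc24h call was lost in the fit of the glucose cultures with the culture as a block (adjusted p = 0.0587). It was also lost in the fit of all 15 arrays with the sample as a random block. DBF2, for a kinase of the mitotic exit network, was higher in Xyl72h, with a difference of 1.30 (adjusted p = 0.0101). CDC53, for the scaffold of the ubiquitin ligase that degrades Sic1 and G1 cyclins, was the 1 gene of these lists to differ between Xyl72h and Glc24h. The signals of CDC53 (YDL132W) were 39.7, 42.1 and 53.4 in Glc5h, 41.3, 50.0 and 32.6 in Glc24h and 20.3, 21.9 and 20.2 in Xyl72h. It differed from Glc5h in Xyl72h by -1.10 (adjusted p = 0.00510) and was lower in Xyl72h than in Glc24h, with a difference of -0.97 (adjusted p = 0.0269). The latter was lost when Glc24h culture 0 or 1 or any Xyl72h culture was left out (adjusted p = 0.0576 to 0.0910).

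**Figure D2:**
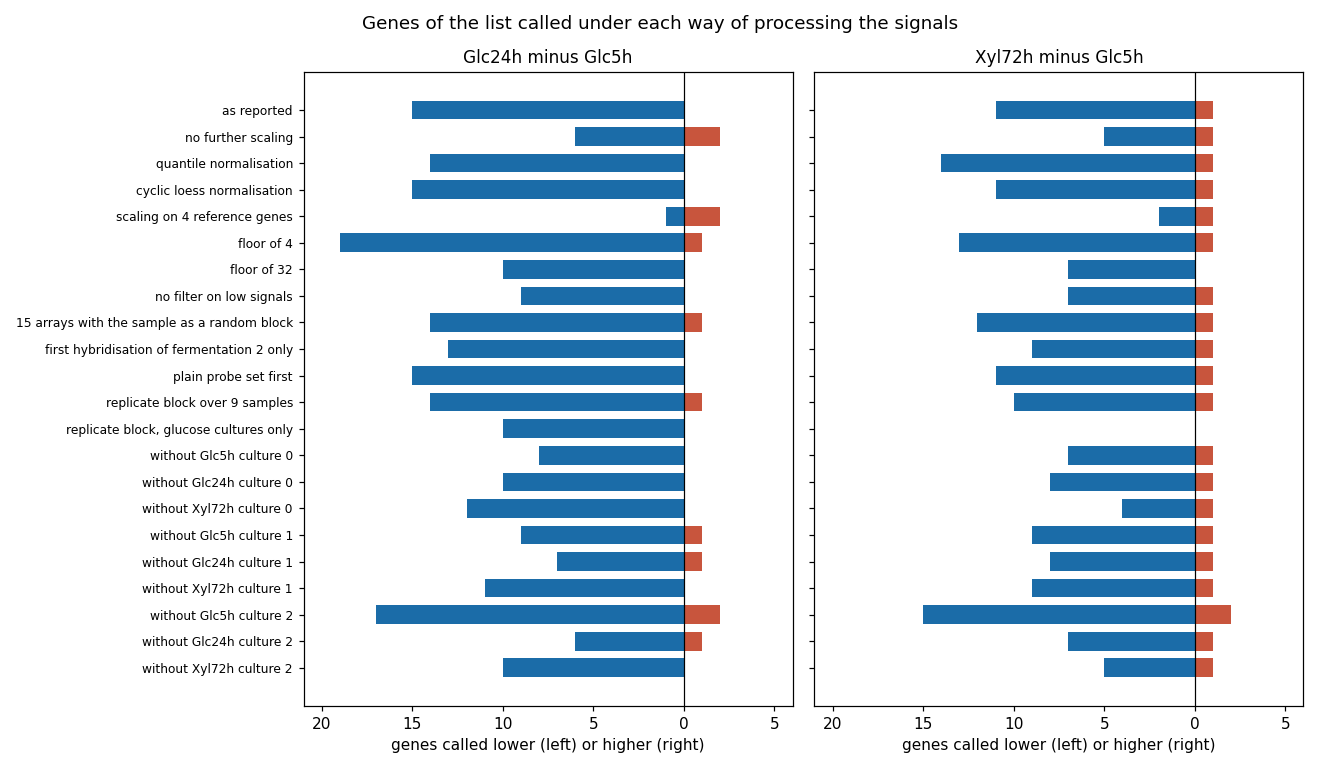
Number of genes of the list called lower (left of 0) and higher (right of 0) in Glc24h and in Xyl72h against Glc5h, as reported and under each alternative processing or with 1 culture left out (the glucose-only block has no Xyl72h value). The reported Glc24h count is 15 lower and 0 higher, and the split is most different with scaling on reference genes, at 1 lower and 2 higher.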

How the data were processed

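RNA from 9 samples, 3 separate cultures in each of 3 states, was measured on 15 Affymetrix Yeast Genome S98 arrays. The authors deposited linear signal intensity values from MicroArray Suite, scaled to a trimmed mean of 50 on each array (the highest and lowest 2% of values left out). The study itself was based on Robust Multichip Average log values, which were not used here, so absolute levels and folds can differ from that scale. The sampling time was taken from each sample's title, because the protocol text of some samples gave another time.

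Control probe sets (60) were removed. Arrays were scaled to a common 75th percentile, signals under 16 were set to 16 (52.3% of all values and 35.3% of those of the listed genes), and log2 was taken. Hybridisations of 1 culture were averaged. The 3398 probe sets at the floor on every array were left out, which left 5877. A log2 difference of a gene near the floor understates its change. One limma model (version 3.58.1, R 4.3.3) over the 3 states gave two-sided tests with Benjamini-Hochberg adjustment over all 5877 probe sets, and a gene passed, or was called, at adjusted p under 0.05. Exact permutation of 3 against 3 cultures cannot go below p = 0.1 and was not used for single genes. Each gene was read from the probe set with the highest mean signal. Probe sets were named from the platform annotation, updated by gene identifier through the RefSeq gene table: 6504 had 1 name, 328 several and 2443 were not listed. A self-test on simulated data preceded the fits. All 41 genes are accounted for by role, those that passed in any comparison with every value, and from the other lists the 3 genes with the largest differences in each direction are named. Gene sequences were not used.

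The members and lists were chosen with earlier results of these data known. The Glc5h and Glc24h samples with 1 number come from the same culture. Deviations of same-numbered samples from their group means correlated at 0.02, 0.19 and 0.26 between Glc5h and Glc24h, at 0.11, 0.28 and 0.20 between Glc5h and Xyl72h, and at 0.58, 0.53 and 0.57 between Glc24h and Xyl72h, so fits with the number as a block were made beside those without. The alternatives were other scalings and normalisations, floors, filters, probe sets and arrays, the block, and each culture left out in turn. The number of arrays limits the precision.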

Additional observations from a re-analysis of the deposited data

How the results depend on the processing

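Of the 27 called differences of single genes, none changed direction under any alternative, and 3 passed under every one that gave a value. The count of genes that differed between Glc24h and Glc5h was 15. It was 8 of 38 genes with no further scaling, 3 of 37 with scaling on 4 reference genes and 9 of 41 with no filter on low signals. Of all probe sets, 31.4%, 34.7% and 15.8% passed under these settings. With no filter, lower calls were 22% of the genes against 9.06% of all probe sets. Leaving out 1 culture at a time gave 7 to 19, where 27% and 37.3% of all probe sets passed. For Xyl72h against Glc5h the count of 12 became 6 of 38 genes with no further scaling, 3 of 37 with reference genes and 7 of 28 with a floor of 32. Of all probe sets, 22.6%, 25.3% and 24.4% passed under these settings. With a floor of 32, lower calls were 25% of the genes against 13.5% of all probe sets. The count was 5 to 17 with 1 culture left out, where 16.2% and 30.6% of all probe sets passed. For Xyl72h against Glc24h the count of 0 became 1 with no further scaling, 2 with the replicate number as a block, and 0 to 1 with 1 culture left out. Of all probe sets, 4.56% passed with no further scaling and 8.29% with the block. By the F-test over the 3 states 13 genes passed (34.3% of all probe sets). This became 7 with no further scaling, 5 with reference genes and 6 with a floor of 32, out of 38, 37 and 28 genes tested. Of all probe sets, 30.3%, 34.3% and 32.9% passed under these settings. It was 8 to 18 with 1 culture left out, the 8 being without Glc24h culture 2. There 28.1% and 37.2% of all probe sets passed. The one-way ANOVA of the methods, run as an exact permutation test at unadjusted p under 0.01, gave 3 of 38 genes. The smallest p it allows is 0.00357. It was run on the listed genes alone, so the share of all probe sets is not known and the 3 cannot be weighed against it. The cause of these changes was not tested, except that fewer samples enter when a culture is left out. Cyclic loess and the choice of a plain probe set kept all 27 calls, quantile normalisation 26, a floor of 4 kept 23, and the single hybridisation and the 15-array fit 22 each. The replicate block over 9 samples gave 15 calls in Glc24h and 11 in Xyl72h against Glc5h and kept 23 of the 27. The glucose-only block gave 10. The block over 9 samples passed 17 genes by the F-test, against 40.2% of all probe sets. For the pairwise comparisons of the listed genes the block over 9 samples changed no call beyond those given with the genes. No further scaling kept 12 of the 27 calls and scaling on reference genes kept 4. A floor of 32 kept 17 of the 25 that had a value. The number of tested genes at the floor in every culture of at least 1 state was 11.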
